A study of Mus musculus with 9 samples.

Results

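The nuclear-encoded respiratory chain genes are the genes of the cell nucleus that code for subunits of the oxidative phosphorylation machinery of mitochondria. They were chosen by symbol (Nduf with a, b, c, s or v and a number, Sdha to Sdhd, and symbols beginning with Uqcr, Cox4 to Cox8 or Atp5). Symbols containing -ps were left out, and 84 of the 54429 symbols in the count table matched. Of these, 77 had a mean estimated count of at least 10 over the 9 libraries and are called members here: 36 of complex I, 4 of complex II, 8 of complex III, 12 of complex IV and 17 of complex V. The complex was assigned by symbol alone (Nduf to I, Sdh to II, Uqcr to III, Cox to IV, Atp5 to V), which need not match the place of each product in the chain. All 77 members passed the filter on low counts and are among the 15931 genes tested. The 7 symbols left out were complex IV isoforms, except Cox6c2, which is annotated as a processed pseudogene. Cox4i2, just outside the limit, had a mean count of 9.33, and Cox7a1, the lowest member inside it, had 56.8. Cox6b2 had a mean count of 4.67, Cox8b 1.89, Cox6a2 1.44 and Cox6c2 0.111, and Cox7b2 and Cox8c were at 0 in every library.

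Complexes I to IV pass electrons from NADH and succinate to oxygen and pump protons across the inner mitochondrial membrane, with complex II feeding electrons without pumping, and complex V (ATP synthase) uses the returning protons to make ATP. A few subunits are encoded by mitochondrial DNA, and the rest are made in the cytosol from nuclear genes and imported. Most nuclear subunits are small proteins with short, abundant mRNAs, and tumors vary in how far they rely on this chain or on glycolysis.

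The libraries were made from poly(A)-selected RNA of whole NB9464 tumors, a MYCN-driven mouse neuroblastoma line, grown from cells implanted under the skin of C57BL/6 wild-type mice whose age the labels do not give. When tumors reached 250 mm3, mice were assigned to 3 groups of 3 tumors each. Vehicle tumors received the carrier. R788 + anti-PDL1 tumors received R788 (fostamatinib, an inhibitor of the kinase Syk, 50 mg/kg, 5 times a week) with the PD-L1 antibody clone 10F.9G2, and Rad + R788 + anti-PDL1 tumors received the same agents with 10 Gy of radiation; they are called irradiated below. The design text gives 4 doses between days 28 and 37, whereas the sample labels give the antibody 4 times a week. Groups with a single agent were not analysed here, so neither the effect of R788 from that of the antibody nor that of radiation from its combination can be told apart. The 3 comparisons below share groups with each other, and all tumors come from 1 transplanted line.

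Library totals ranged from 18276683 to 23397886 estimated counts. The labels describe the tissue as whole tumor, while their extraction text names bone marrow-derived macrophages. Hand2 (325 to 867 CPM, estimated counts scaled to library size) and Mycn (93.3 to 250 CPM), both expressed in neuroblastoma, were present in every library, but the noradrenergic marker Th was at 0 in all 9, and Phox2a and Dbh did not exceed 0.164 CPM. The first irradiated tumor stood apart from the other 8: it had the lowest scaling factor (0.743, others 0.975 to 1.12), the fewest genes counted (18263, others 19732 to 22129) and the lowest mitochondrially encoded share (1.97%, others 3.48% to 5.71%). The members' counts and medians that include it are therefore given with and without it.

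Members differed widely in level. Per kilobase of transcript, the highest mean CPM in vehicle tumors belonged to Atp5h (914 CPM per kb), a subunit of the ATP synthase stalk, followed by the beta and alpha subunits of its catalytic F1 head, Atp5b (736) and Atp5a1 (691). Cox4i1 (598) and Cox8a (567), the widely expressed forms of complex IV subunits, came next. At the low end were Ndufb2 (21.8), Atp5s (6.95) and Cox7a1 (4.46), the heart and muscle form of subunit VIIa, whose widely expressed counterpart Cox7a2 was at 154 CPM per kb. Of the paired isoforms Cox4i1 and Cox4i2, Cox6a1 and Cox6a2, Cox6b1 and Cox6b2, Cox7b and Cox7b2, and Cox8a, Cox8b and Cox8c, the widely expressed form was the one retained in every case.

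The promoters of these genes are known for sites of the factors NRF1, GABP (an ETS factor) and YY1. Promoter sequences from RefSeq (build GRCm38.p6, 250 bases before to 50 after the annotated start) were matched for 65 members, and 12 had no entry. The letters searched, on both strands, were GCGCATGC for NRF1, CCGGAAG for ETS factors, AAGATGGC for YY1, CACGTG for the E-box read by MYC family proteins, and GGGCGG for SP1. Atp5l, subunit g of the membrane part of complex V, and Cox6a1, a subunit of complex IV, are shown because each is among the 5 members (with Atp5k, Sdhb and Uqcr11) whose windows hold both the NRF1 and the ETS letters. The stretches end before the first annotated exon, capitals mark matches to any of the 5 motifs, and both are read on the minus strand, Atp5l from chr9:44920743-44920992 and Cox6a1 from chr5:115348982-115349208. The ETS match of Cox6a1 lies beyond the printed stretch, and its capitals at NRF1 are 2 overlapping matches, GCGCATGC and GCATGCGC.
Atp5l: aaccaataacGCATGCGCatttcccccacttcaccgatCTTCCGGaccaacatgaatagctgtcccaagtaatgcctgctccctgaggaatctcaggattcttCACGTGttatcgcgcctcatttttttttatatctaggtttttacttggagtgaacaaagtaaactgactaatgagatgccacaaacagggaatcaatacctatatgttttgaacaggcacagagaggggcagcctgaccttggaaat
Cox6a1: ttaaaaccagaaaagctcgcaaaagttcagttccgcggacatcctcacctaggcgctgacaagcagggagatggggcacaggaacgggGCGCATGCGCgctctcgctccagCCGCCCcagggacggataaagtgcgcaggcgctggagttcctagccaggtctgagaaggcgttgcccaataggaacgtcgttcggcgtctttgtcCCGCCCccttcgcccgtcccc

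The NRF1 letters stood in the windows of 10 members (15.4%, against 3.05% of all 27025 genes with a window), and the YY1 letters also in 10 (15.4% against 3.19%). The ETS letters stood in 16 (24.6% against 9.93%). The other 2 motifs were about as frequent as elsewhere, the E-box letters in 6 members (9.23% against 8.09%) and the SP1 letters in 26 (40% against 38.2%), and 18 members held none of the 5. A match is a description of letters, not of binding. In R788 + anti-PDL1 against vehicle tumors the median log2 fold change was -0.42 for members with the NRF1 letters and -0.39 for those without, and it was -0.44 and -0.39 with and without the ETS letters.

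In summed CPM the respiratory chain was lower in all 3 R788 + anti-PDL1 tumors than in any vehicle tumor. All 77 members together summed to 16056, 11914 and 12789 CPM in vehicle tumors, to 10640, 9233 and 10384 in R788 + anti-PDL1 tumors, and to 32513, 11291 and 11062 in irradiated tumors. The mean of the R788 + anti-PDL1 tumors was 74.2% of the vehicle mean, between 72.4% for complex I and 77.5% for complex IV, so the 5 complexes stood close together. The first irradiated tumor was at 239% of the vehicle mean and the other 2 at 82.3%. In bulk tumors, fewer cells of a type and less RNA per cell cannot be told apart.

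**Figure D1:**
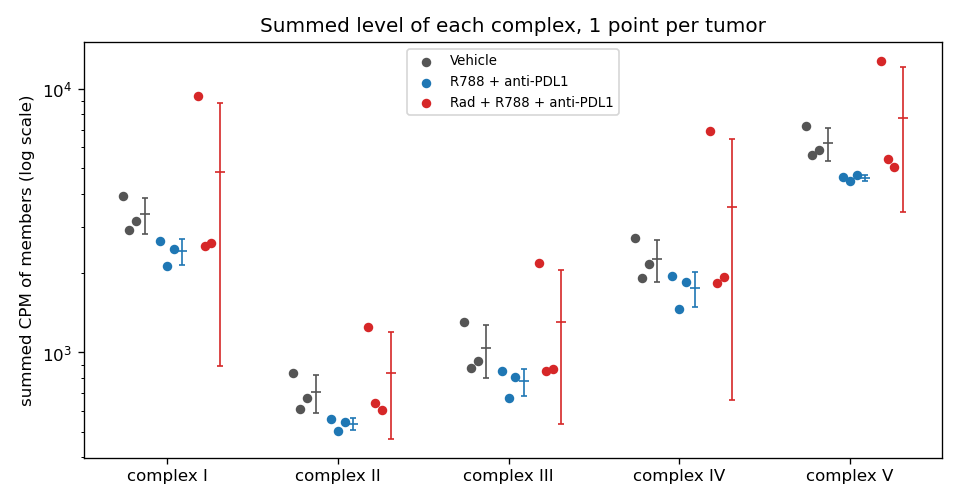
Summed CPM of the members of each complex (log axis) in each of the 9 tumors, 1 point per tumor in the colour of its group, with the group mean and SD (n = 3) as a bar beside the points. With the scaling factors used, R788 + anti-PDL1 tumors lie below vehicle tumors in complexes I, II, III and V. The first irradiated tumor lies above all others, at 9443 CPM for complex I against at most 3938 elsewhere.

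By complex, the sums of complex I were 3938, 2917 and 3165 CPM in vehicle, 2648, 2124 and 2479 in R788 + anti-PDL1 and 9443, 2530 and 2605 in irradiated tumors. For complex II they were 836, 613 and 670, then 559, 502 and 544, then 1251, 642 and 607. The sums of complexes I, II, III and V did not overlap between vehicle and R788 + anti-PDL1 tumors, and those of complex IV did (1912 to 2716 against 1458 to 1953). For complex III this depended on the scaling. Its sums were 873 CPM in the second vehicle tumor (scaling factor 0.989) and 847 in the first R788 + anti-PDL1 tumor (1.05). With library totals alone the complex III sums of the groups overlapped. The first irradiated tumor reached 305% of the vehicle mean for complex IV and 283% for complex I, but 211% for complex III, 204% for complex V and 177% for complex II.

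**Figure D2:**
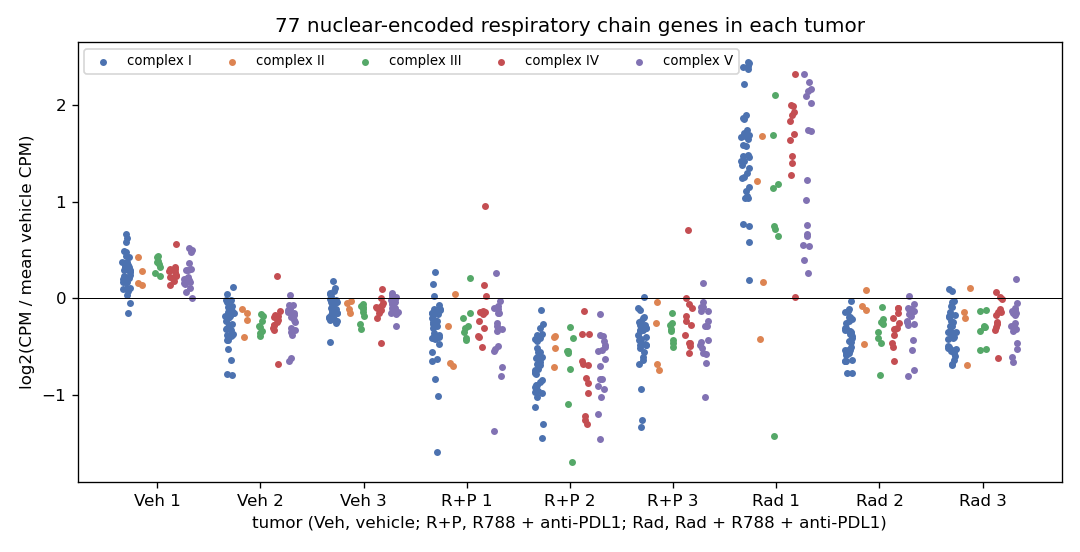
Log2 ratio of each member's CPM to its vehicle mean in each of the 9 tumors, 1 point per member, coloured by complex. Nearly every member is high in the first irradiated tumor, where the median was 1.49, and most are low in the R788 + anti-PDL1 tumors, where the medians were -0.24, -0.64 and -0.30. These medians are of log2 CPM with a prior count of 2 minus the mean vehicle log2 CPM, which differs slightly from the plotted ratio.

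The median member differed from its vehicle mean by 0.30, -0.21 and -0.08 on the log2 scale in the vehicle tumors themselves, so the first vehicle tumor was high for the chain. In R788 + anti-PDL1 tumors it was -0.24, -0.64 and -0.30. The second of them was the lowest of all 9 libraries for 55 of the 77 members, against 2359 of the 15931 genes tested. The other two irradiated tumors were at -0.29 and -0.26. All genes tested had medians between -0.07 and 0.00 in each library.

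The first comparison asks how the chain differs after R788 + anti-PDL1 from vehicle. Of the 77 members, 75 had a log2 fold change below 0 (71 with library totals alone as scaling), with a median of -0.41 against -0.02 for all genes tested, and the medians by complex were -0.43, -0.46, -0.39, -0.31 and -0.41 for I to V. No member passed edgeR's quasi-likelihood test at a Benjamini-Hochberg adjusted p under 0.05, a threshold passed by 0.678% of all genes, and 3 members (Sdhc, Ndufa10 and Atp5j) were lower at an unadjusted p under 0.05, against 5.69% of all genes. The CPM of the groups did not overlap for 31 members, all lower after treatment (16 of complex I, 2 of II, 3 of III, 3 of IV and 7 of V), where 16.5% of all genes did so. DESeq2 called 2 members lower (2.05% of all genes), Sdhc and Ndufa10. An edgeR fit on only the 6 libraries compared called 3 lower (1.73% of all genes), among them Ndufa10 and Sdhc, and had 26 members lower at an unadjusted p under 0.05 (10.3% of all genes). With limma-voom none was called (0.697% of all genes were), and 4 were lower at an unadjusted p under 0.05 (6.21% of all genes). Leaving out 1 library of these 2 groups at a time, the median ran from -0.52 to -0.22, the smallest without the first vehicle tumor. It was -0.30 without the second R788 + anti-PDL1 tumor.

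The comparison of irradiated with vehicle tumors depended on the first irradiated tumor for its direction. With all libraries 69 members were above 0, with a median log2 fold change of 0.57 against 0.05 for all genes, and complex medians of 0.58, 0.27, 0.23, 0.77 and 0.33. No member passed the adjusted threshold of edgeR, which 0.0439% of all genes did, and DESeq2 (3.84% of all genes) and limma-voom (0.0753%) also called none. DESeq2 gave 3 members, Ndufa13, Ndufa5 and Ndufb7, no adjusted p in any comparison. Only Sdhc had an unadjusted edgeR p under 0.05, against 13.2% of all genes. No member was higher without overlap (9.27% of all genes) and 2, Sdhc and Uqcrc2, were lower without overlap (11.2% of all genes). Without the first irradiated tumor the median turned to -0.26 and 3 members were above 0, with complex medians of -0.37, -0.11, -0.27, -0.19 and -0.17. In that fit 17 members were lower at an unadjusted p under 0.05 (6.91% of all genes) and none passed the adjusted threshold. The remaining 2 irradiated tumors lay below all vehicle tumors for 33 members, where 20.2% of all genes did.

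**Figure D3:**
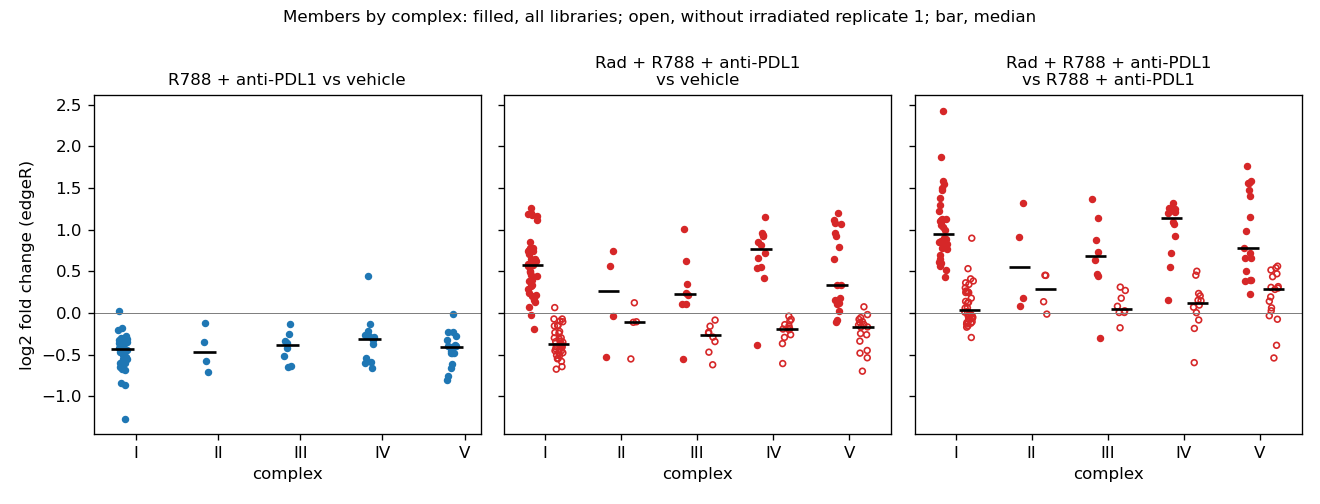
edgeR log2 fold change of each member (points) by complex in the 3 comparisons, filled with all libraries, open without the first irradiated tumor, with the median as a bar. The R788 + anti-PDL1 values lie below 0 for 75 of 77 members, and the irradiated against vehicle values go from a median of 0.57 to -0.26 without that tumor.

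Irradiated tumors were also compared with R788 + anti-PDL1 tumors, which differ from them by the radiation. With all libraries 76 members were above 0, with a median log2 fold change of 0.92 against 0.04 for all genes and complex medians of 0.95, 0.55, 0.69, 1.14 and 0.78. No member passed edgeR's adjusted threshold (0.00628% of all genes did), while 35 were higher at an unadjusted p under 0.05 (11.7% of all genes). DESeq2 called 2 higher (3.1% of all genes), Ndufa2 and Atp5o, and limma-voom called none (0.0502% of all genes), with 11 higher at an unadjusted p under 0.05 (9.19% of all genes). The groups did not overlap for 17 members, all higher after radiation (14.2% of all genes), of which 7 belonged to complex I, 2 each to II, III and IV and 4 to V. Without the first irradiated tumor the median was 0.12 and 52 members were above 0. In that fit 7 were higher at an unadjusted p under 0.05, near the 9.13% of all genes that were, and 17 were higher without overlap, against 20.7% of all genes.

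Complex I takes electrons from NADH. Ndufa10 (chr1:92439010-92473860 in GRCm38, minus strand), an accessory subunit, was at 166, 163 and 185 CPM in vehicle, 96.2, 101 and 89.8 in R788 + anti-PDL1 and 196, 131 and 122 in irradiated tumors. The R788 + anti-PDL1 tumors were the lowest 3 of the 9, close to each other and apart from the rest. Its log2 fold change against vehicle was -0.84 (SE 0.21, edgeR adjusted p = 0.116), and DESeq2 gave -0.81 with an adjusted p of 0.0175.

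Ndufs1, Ndufv1 and Ndufs7, core subunits that carry flavin or iron-sulfur clusters, were lower without overlap in R788 + anti-PDL1 tumors. Ndufs1 was at 178, 215 and 202 CPM in vehicle and 135, 152 and 150 in R788 + anti-PDL1 tumors, a log2 fold change of -0.44 (SE 0.28, edgeR adjusted p = 0.622). Ndufv1, which binds NADH, was at 226, 177 and 182 against 140, 124 and 140, a fold change of -0.53 on the log2 scale (SE 0.42). Ndufs7 was at 115, 92.4 and 99.6 against 79.9, 79.1 and 82.8, with a fold change of -0.35 (SE 0.55). None of them passed the adjusted test. In the first irradiated tumor they were at 337, 431 and 379 CPM, and in the other 2 at 155 to 173, 129 to 133 and 71.0 to 78.0, so all 3 genes in those 2 tumors also lay below all vehicle tumors.

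At the ends of the complex I range were accessory subunits. Ndufa2, with the lowest fold change after R788 + anti-PDL1, was at 184, 67.5 and 97.3 CPM in vehicle, 38.8, 57.3 and 48.9 in R788 + anti-PDL1 and 601, 80.4 and 98.9 in irradiated tumors. The vehicle values were spread, and the log2 fold change of -1.27 had an SE of 0.71 and an edgeR adjusted p of 0.565. Against R788 + anti-PDL1 the irradiated tumors were higher by 2.43 (SE 0.74, edgeR adjusted p = 0.222; DESeq2 adjusted p = 0.0156), and by 0.90 without the first irradiated tumor. Ndufs4, the one complex I member above 0 in the first comparison, had a fold change of 0.03 on the log2 scale (SE 0.58), with 54.5, 28.9 and 33.3 CPM in vehicle and 46.8, 35.8 and 36.2 in R788 + anti-PDL1 tumors. Ndufa13 stood out most in the first irradiated tumor, at 529 CPM against 72.7 to 113 in the other 8. Its fold change against vehicle was 1.26 (SE 0.62, edgeR adjusted p = 0.4), and -0.15 without that tumor. Ndufa9 was the lowest complex I member in irradiated against R788 + anti-PDL1 tumors, at 0.43 (SE 0.31), and -0.07 without that tumor.

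Complex II, succinate dehydrogenase, joins the citrate cycle to the chain and has no subunit encoded by mitochondrial DNA. Sdhc (chr1:171127165-171150603, minus strand), a membrane anchor, was at 191, 160 and 167 CPM in vehicle, 109, 105 and 103 in R788 + anti-PDL1 and 129, 125 and 107 in irradiated tumors. All 6 treated tumors lay below all 3 vehicle tumors, and the first irradiated tumor did not stand apart. Its log2 fold change was -0.71 after R788 + anti-PDL1 (SE 0.16, edgeR adjusted p = 0.0981; DESeq2 -0.68, adjusted p = 0.00114) and -0.52 in irradiated tumors (SE 0.16, edgeR adjusted p = 0.272), the latter -0.55 without the first of them. Sdhc lies on chromosome 1, as do Ndufa10 and Ndufs1. The 790 genes tested there had a median log2 difference from the vehicle mean of -0.20 in each R788 + anti-PDL1 tumor. It was -0.39, -0.22 and -0.20 in the irradiated tumors and -0.10, 0.09 and 0.03 in the vehicle tumors. The part of that shift in these members was not tested. The catalytic flavoprotein Sdha differed little, at 198 to 246 CPM in vehicle, 166 to 227 in R788 + anti-PDL1 and 191 to 246 in irradiated tumors, with fold changes of -0.12 and -0.03 (SE 0.19 each) whose signs changed with the scaling, to 0.02 with library totals alone and 0.03 with upper-quartile scaling. Sdhb, the iron-sulfur subunit, was at 207, 146 and 158, then 105, 130 and 107, then 543, 156 and 154 CPM, a fold change after R788 + anti-PDL1 of -0.58 (SE 0.45), and Sdhd, the other anchor, had -0.35 (SE 0.33) with overlapping groups.

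**Figure D4:**
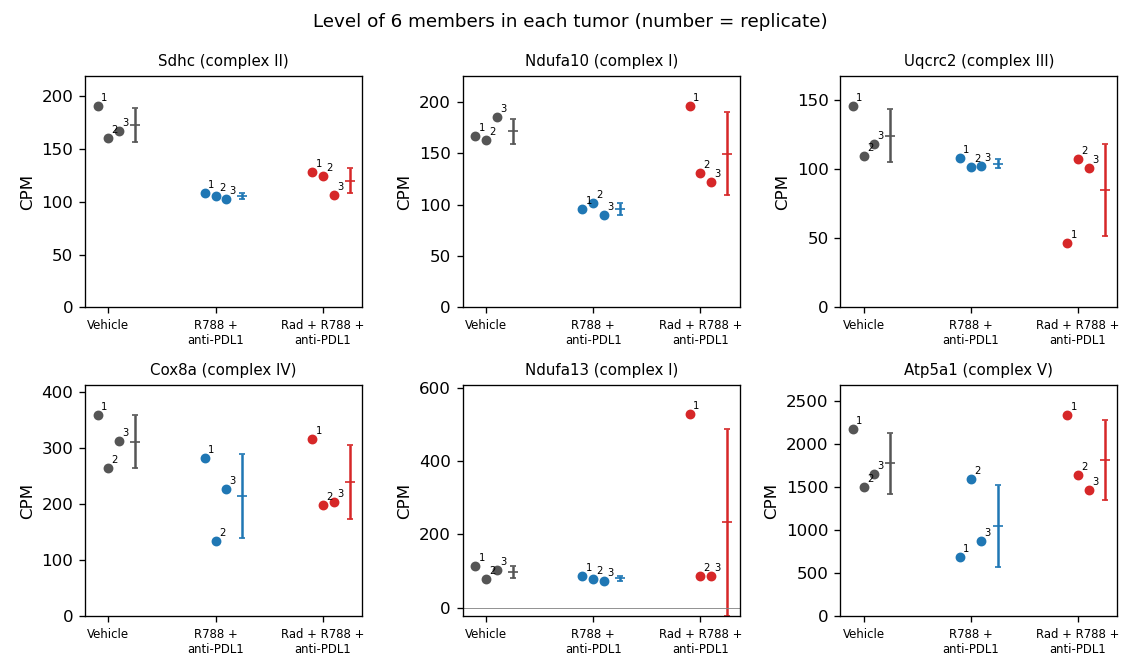
CPM of Sdhc, Ndufa10, Uqcrc2, Cox8a, Ndufa13 and Atp5a1 in each of the 9 tumors by group, numbered by replicate, with the group mean and SD (n = 3) as a bar. Sdhc is lower in all 6 treated tumors than in any vehicle tumor, and the first irradiated tumor is not the highest for Sdhc, Uqcrc2 and Cox8a but is at 529 CPM for Ndufa13, where the other 8 are at most 113.

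Complex III passes electrons from ubiquinol to cytochrome c. Uqcrc1, a core subunit, was at 351, 262 and 265 CPM in vehicle and 220, 220 and 218 in R788 + anti-PDL1 tumors, lower without overlap, with a log2 fold change of -0.42 (SE 0.26, edgeR adjusted p = 0.61). Uqcrc2 (chr7:120635176-120659524, plus strand), the other core subunit, was at 146, 109 and 118, then 108, 102 and 102, then 46.3, 107 and 101 CPM. It was the only member lowest in the first irradiated tumor, and its fold change against vehicle was -0.55 with that tumor and -0.23 without it (SE 0.29 with all libraries). The Rieske iron-sulfur protein Uqcrfs1 had a fold change of -0.34 after R788 + anti-PDL1 (SE 0.31) with overlapping groups. The small subunits Uqcr11 (-0.64, SE 0.54) and Uqcrb (-0.13, SE 0.41, but 0.01 with library totals alone) marked the ends of the range in that comparison, and the hinge protein Uqcrh was highest in irradiated against vehicle tumors, at 1.01 (SE 0.56) with the first of them and -0.16 without it.

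Complex IV, cytochrome c oxidase, reduces oxygen. Cox4i1 was at 525, 400 and 429 CPM in vehicle, 343, 413 and 374 in R788 + anti-PDL1 and 1801, 420 and 410 in irradiated tumors, with log2 fold changes of -0.26 after R788 + anti-PDL1 (SE 0.51) and 0.96 after irradiation (SE 0.52), the latter -0.09 without the first irradiated tumor. Cox5a, which lies on the matrix side, was at 133, 85.3 and 99.2, then 74.5, 60.0 and 75.4, then 328 CPM in the first irradiated tumor and at most 98.9 in the others. It was lower without overlap after R788 + anti-PDL1 (-0.60, SE 0.44, edgeR adjusted p = 0.69), and in all 3 irradiated tumors it lay above the R788 + anti-PDL1 tumors (1.32, SE 0.45, edgeR adjusted p = 0.223, and 0.50 without the first of them). Cox7b had the lowest fold change of the complex after R788 + anti-PDL1 (-0.66, SE 0.45), also without overlap. It lies on chromosome X, as do Ndufa1 and Ndufb11, and the 428 genes tested there had a median log2 difference from the vehicle mean of -0.59 in the second R788 + anti-PDL1 tumor, where Cox7b was lowest (54.9 CPM), and -0.30 in the first irradiated tumor. The part of that shift in these members was not tested.

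Cox8a (chr19:7215153-7217616, minus strand) was at 359, 264 and 312 CPM in vehicle, 282, 134 and 227 in R788 + anti-PDL1 and 316, 199 and 203 in irradiated tumors. It is a short transcript (550 bases) that was not highest in the first irradiated tumor. Its fold change in irradiated against vehicle tumors was -0.38 (SE 0.30), and -0.61 without that tumor, where the groups no longer overlapped. The 484 genes tested on chromosome 19 had median log2 differences from the vehicle mean of -0.41, -0.36 and -0.34 in the irradiated tumors. In the second R788 + anti-PDL1 tumor, where Cox8a was lowest, their median was -0.28. Ndufb8, Ndufs8 and Ndufv1 also lie there and were highest in the first irradiated tumor. The part of that shift in these members was not tested. Cox7a1, the muscle form, was the highest of the complex after R788 + anti-PDL1 (0.44, SE 0.76) but at 0.994 to 3.79 CPM in those 3 tumors against 1.43 to 2.29 in vehicle, so the groups overlapped. The widely expressed isoforms Cox6a1 (-0.27, SE 0.51), Cox6b1 (-0.33, SE 0.54) and Cox7a2 (-0.29, SE 0.51) overlapped between vehicle and R788 + anti-PDL1 tumors.

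Complex V makes ATP. Its alpha subunit gene Atp5a1 was at 2175, 1500 and 1657 CPM in vehicle, 689, 1594 and 878 in R788 + anti-PDL1 and 2336, 1646 and 1462 in irradiated tumors. The second R788 + anti-PDL1 tumor was within the vehicle range and the other two were below it, with a log2 fold change of -0.75 (SE 0.35, edgeR adjusted p = 0.449). Atp5a1 and Ndufa2 lie on chromosome 18, on which the 363 genes tested had median log2 differences from the vehicle mean of -1.01, 0.03 and -0.70 in the 3 R788 + anti-PDL1 tumors and -0.31 in the first irradiated tumor. Atp5a1 differed by -1.35, -0.14 and -0.9985 in those 3 and Ndufa2 by -1.46, -0.89 and -1.12. The part of the whole chromosome's shift in these 2 members was not tested.

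The beta subunit Atp5b overlapped between the groups, at 1620, 1346 and 1265 CPM in vehicle and 1321, 973 and 1326 in R788 + anti-PDL1 tumors (-0.23, SE 0.29). Atp5j, coupling factor 6, was at 172, 138 and 156, then 110, 119 and 105, then 226, 158 and 142 CPM, and its fold change was -0.48 (SE 0.21, edgeR adjusted p = 0.421), lower without overlap. It overlaps Gabpa on the other strand. Atp5o, of the stalk that links head and membrane, was at 363, 299.9 and 311 in vehicle, 199 (lowest), 233 and 204 in R788 + anti-PDL1 and 1076, 312 and 292 CPM in irradiated tumors. Irradiated tumors were higher than R788 + anti-PDL1 tumors by 1.401 for Atp5o (SE 0.46, edgeR adjusted p = 0.223; DESeq2 adjusted p = 0.04996), and by 0.52 without the first of them. Atp5j and Atp5o lie on chromosome 16. The 417 genes tested there had median log2 differences from the vehicle mean of -0.29, 0.01 and -0.21 in R788 + anti-PDL1 tumors. In the irradiated tumors these were -0.06, 0.12 and 0.10. The part of that shift in these members was not tested. The ends of the range after R788 + anti-PDL1 were Atp5e (-0.81, SE 0.66), the epsilon subunit, and Atp5h (-0.02, SE 0.57), whose sign changed with the scaling, to 0.12 with library totals alone. In irradiated against vehicle tumors they were Atp5j2 (1.20, SE 0.60, and -0.06 without the first irradiated tumor) and Atp5g1, a gene for the membrane ring (-0.10, SE 0.40, and -0.70 without it).

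The first irradiated tumor was the highest of the 9 libraries for 74 of the 77 members (96.1%), against 30.4% of all genes tested. It was at least 2 times the highest other library for 49 members, with a median ratio of 2.25 and a highest of 4.70 (Ndufa13). The share of all genes at that ratio was not counted. Cox8a, Sdhc and Uqcrc2 were the members that were not highest there.

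Transcript length moved with this excess. Members had a median transcript length of 745 bases, against 2704 for the 13704 protein-coding genes tested, and 51 (66.2%) were of 1000 bases or less, against 7.94%. In the first irradiated tumor, all protein-coding genes of 500 bases or less differed from the vehicle mean by a median of 1.50 on the log2 scale, those of the next class, up to 1000 bases, by 1.22, and those over 5000 bases by -0.85. Members exceeded their length class in each class they filled, with medians of 1.97, 1.69, 1.41, 0.73 and 0.54 from the shortest class to that ending at 3000 bases, where all genes had 1.50, 1.22, 0.79, 0.47 and -0.05. Of the 77 members, 60 lay above the median of their class, with a median excess of 0.47. The classes also differed in R788 + anti-PDL1 against vehicle tumors, from -0.33 for the shortest to 0.14 for the longest genes, and with the class median subtracted the members' median was -0.16 in place of -0.41. The part of transcript length in the members' values was not tested further.

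**Figure D5:**
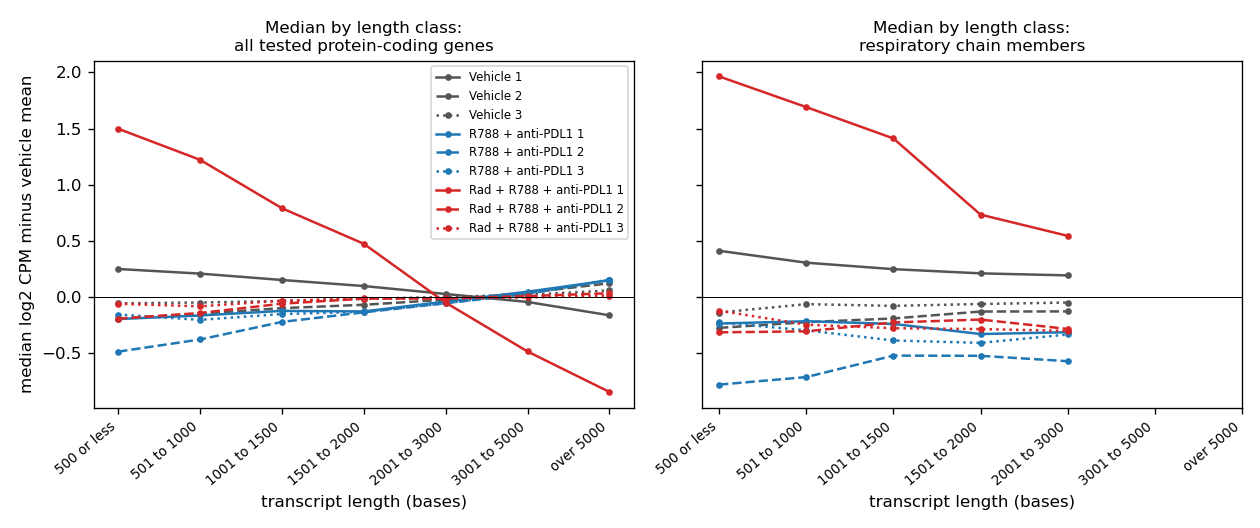
Median log2 CPM minus the vehicle mean by transcript length class (bases), 1 line per tumor, for all protein-coding genes tested (left) and for the members (right); solid, dashed and dotted lines are replicates 1, 2 and 3 of a group. In the first irradiated tumor both fall with length, from 1.50 to -0.85 for all genes, and the members lie above all genes in each class they fill.

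The genes outside the chain most like the members across the 9 libraries, by Pearson's r with the members' mean log2 CPM, were Drap1, Pafah1b3 and Tmem11 (r = 0.996 each) and Ppp2r1a and Mbd3 (r = 0.995 each). Without the first irradiated tumor these r were between 0.973 and 0.986. The libraries share depth and scaling between genes, and the values are a description.

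The 13 subunits encoded by mitochondrial DNA had medians of the opposite sign to the nuclear members in each comparison with all libraries. After R788 + anti-PDL1, 11 of 13 were above 0, with a median log2 fold change of 0.19 and none passing edgeR's adjusted test or an unadjusted p under 0.05. In the first irradiated tumor they summed to 25742 CPM, against 34615 to 50168 in the other 8, while the nuclear members were highest there. They did not move together: mt-Co1, the catalytic subunit of complex IV, was at 1459 CPM in that tumor against 7547 to 12885 elsewhere, but mt-Co2, mt-Co3, mt-Nd3 and mt-Nd6 were highest in it. The medians in irradiated tumors were -0.23 against vehicle and -0.51 against R788 + anti-PDL1, and -0.027 and -0.32 without the first of them, where the nuclear members had -0.26 and 0.12.

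Chain genes outside the symbol patterns and assembly factors showed medians of the same sign as the members after R788 + anti-PDL1. The 9 tested chain genes outside the patterns, such as Cyc1, Cycs and Ndufab1, had a median of -0.23 after R788 + anti-PDL1, 0.42 in irradiated against vehicle tumors and 0.66 in irradiated against R788 + anti-PDL1 tumors, the latter pair -0.13 and 0.075 without the first irradiated tumor. Ndufa4l2, a relative of Ndufa4 known for its rise in hypoxia, was at 7.23, 10.5 and 11.7 CPM in vehicle and 2.87, 2.56 and 2.21 in R788 + anti-PDL1 tumors, with a fold change of -1.94 (SE 0.38, edgeR adjusted p = 0.0677). Assembly factors, which build the complexes without staying in them, had medians after R788 + anti-PDL1 of -0.08 for the 15 of complex I, -0.50 for the 4 of II, -0.40 for the 6 of III, -0.19 for the 20 of IV and -0.13 for the 4 of V. The same lists had 0.17, -0.06, -0.01, 0.11 and -0.04 in irradiated against vehicle tumors and 0.35, 0.55, 0.50, 0.35 and 0.21 in irradiated against R788 + anti-PDL1 tumors. Without the first irradiated tumor these were -0.14, -0.41, -0.24, -0.11 and -0.092 against vehicle and 0.048, 0.24, 0.073, 0.083 and 0.052 against R788 + anti-PDL1. None of these genes passed the adjusted test.

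The 78 mitochondrial ribosomal proteins, which translate the mitochondrially encoded subunits, had medians of -0.28, 0.37 and 0.65 in the 3 comparisons, with 3, 61 and 72 of them above 0 and none passing edgeR's adjusted test. Without the first irradiated tumor the median was -0.24 against vehicle and 0.10 against R788 + anti-PDL1. The 13 citrate cycle enzymes had medians of -0.36, -0.06 and 0.35 (the latter pair -0.098 and 0.26 without that tumor), and their sum in the first irradiated tumor, 2705 CPM, was within the vehicle range of 2501 to 2865. The 16 genes of glycolysis and the switch to it in hypoxia had a median of -0.64 after R788 + anti-PDL1, with all 16 below 0 and 1 passing the adjusted test. That gene was Pdk1, the kinase that limits pyruvate entry into mitochondria, at 430, 351 and 351 CPM in vehicle and 173, 187 and 177 in R788 + anti-PDL1 tumors, which fell by 1.08 on the log2 scale (SE 0.18, edgeR adjusted p = 0.0383). The list's medians were -0.14 in irradiated against vehicle and 0.49 in irradiated against R788 + anti-PDL1 tumors, and -0.44 and 0.16 without the first irradiated tumor. The 14 regulators of the chain, among them Nrf1, Gabpa, Yy1, Esrra and Tfam, had medians of -0.28, -0.34 and 0.00, the latter pair -0.28 and -0.020 without that tumor, with none passing the adjusted test.

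Markers of cell types that tumors can hold were measured beside these values. The 8 macrophage markers summed to 246 to 458 CPM in vehicle, 486 to 553 in R788 + anti-PDL1 and 276, 229 and 1307 in irradiated tumors, with a median log2 fold change of 0.58 after R788 + anti-PDL1, so all 3 R788 + anti-PDL1 tumors lay above all vehicle tumors for them. Erythroid genes summed to 625, 201 and 251 CPM in vehicle and 58.2 to 109 in R788 + anti-PDL1 tumors, all 5 below 0 (median -2.04), and the first vehicle tumor was highest both for them and, among vehicle tumors, for the chain. The 6 tested skeletal muscle markers had a median of -0.23 after R788 + anti-PDL1. Of all 12, 11 did not exceed 10.9 CPM in any library, and Tnni2 was at 764 CPM in the first irradiated tumor against 32.6 to 164 elsewhere. Ucp1, the defining gene of brown adipocytes, was at 0 in every library. Dio2, the only 1 of the 6 genes on that list that was tested, rose by 1.60 on the log2 scale after R788 + anti-PDL1 (edgeR adjusted p = 0.0399) and by 2.65 in irradiated tumors (edgeR adjusted p = 0.0158). Cox8b, also on the list, went the other way, with counts of 1, 9 and 6 in vehicle and 0 in each R788 + anti-PDL1 tumor.

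The remaining lists held no gene that passed edgeR's adjusted test. After R788 + anti-PDL1, the median log2 fold change was 0.55 for the 3 tested T cell markers, -0.38 for the 1 tested adipocyte marker, 0.97 for the 5 endothelial markers, 0.18 for the 6 fibroblast markers, -0.68 for the 4 tested neuroblast markers and -0.18 for the 7 proliferation genes. Of the neuroblast markers 2 were above 0 and 2 below, and their summed CPM was 506 to 632 in vehicle and 623 to 698 in R788 + anti-PDL1 tumors. Fibroblast markers summed to 3013 to 3742 CPM in vehicle and 2908, 5367 and 3402 in R788 + anti-PDL1 tumors, the highest in the tumor that was lowest for most members, and 2506 in the first irradiated tumor, where they were lowest. The part of these cell types in the members' values was not tested.

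Some counts could be shared with other genes. Atp5g2, Ndufb4 and Ndufc1 have near-identical stretches in other genes, and their values are uncertain. For Atp5g2 there are 2 such genes, the more counted being Gm10175, with a summed mean count of 384% of its own. Ndufb4 has 1 (Ndufb4c, 114%) and Ndufc1 has 1 (Ube2e1, 164%). Genes overlapping a member were left out of this search, among them Yjefn3, which overlaps Ndufa13 on the same strand. A further limit is that 27 members overlap another gene on the opposite strand, and whether the counting used strand is not given in the sources used here.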

How the data were processed

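RNA from 9 whole tumors was sequenced by the authors, and per the labels and the study's methods reads were aligned with STAR 2.6.1d to mm10 and quantified with Salmon 1.4.0; MultiQC 1.11, Picard 2.26 and SAMtools 1.9 are also named. The labels give paired-end reads on a NovaSeq instrument and the study's methods describe another instrument and read type. The deposited table holds estimated counts per gene symbol, all whole numbers as deposited, not normalized, and every column was matched to a sample by its title. Replicates are separate tumors by label, and p-values measure the spread between these tumors.

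Genes were filtered with filterByExpr (minimum count 10; 15931 kept), scaled by TMM and fitted over the 9 libraries with edgeR 4.0.16 in R 4.3.3 (common dispersion 0.146), using quasi-likelihood tests adjusted by Benjamini-Hochberg over all genes tested. DESeq2 1.42.0 and limma 3.58.1 (voom) were alternatives, with other scalings, filters, sample sets and each library left out. CPM used TMM-scaled library sizes. The script was tested on simulated counts. Precision is set by 3 tumors per group and 18276683 to 23397886 counts per library.

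Named members were the defining subunits, the paired isoforms, the extremes of each complex in each comparison and any member called. Atp5o, Atp5j, Ndufb2, Atp5s, the members with near-identical copies and the genes named from the other lists were chosen after their values were seen. Some genes of these lists are not reported here by name. Members and lists were chosen with earlier results of these data known. Symbols were matched to GENCODE M21 (98.8% matched), transcript length is the median of a gene's basic protein-coding transcripts, and copies are stretches of at least 100 bases at 98% identity or more by BLAST 2.17.0. Alternatives that subtract the length-class median, also without the first irradiated tumor, or leave out members on chromosome 18 or with near-identical copies were added after seeing the data.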

Additional observations from a re-analysis of the deposited data

How the results depend on the processing

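With 15 alternatives or fewer per comparison, not counting libraries left out, the members' median log2 fold change ran from -0.41 to -0.16 for R788 + anti-PDL1 against vehicle, from -0.21 to 0.63 for irradiated against vehicle and from -0.0346 to 0.94 for irradiated against R788 + anti-PDL1 tumors. DESeq2 called 2 members in the first and 2 in the last comparison, and the fit on the 6 libraries compared called 3 in the first, where edgeR over 9 libraries called 0; the cause was not tested. Library totals alone shifted the median of all genes to 0.13 in the first and -0.14 in the last comparison, upper-quartile scaling to 0.11 in the irradiated against vehicle comparison, and library totals moved the mean summed CPM of R788 + anti-PDL1 tumors to 580.3 for complex II and 4993 for complex V.

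With the length-class median subtracted (chosen after seeing the data), the members' median was -0.16 for R788 + anti-PDL1 against vehicle, and complex III turned to -0.19 for irradiated against vehicle and -0.0695 against R788 + anti-PDL1. Without the first irradiated tumor as well, the irradiated against vehicle median was -0.21 (-0.29, -0.10, -0.21, -0.10 and -0.12 for complexes I to V), and against R788 + anti-PDL1 it was -0.0346 (-0.12, -0.10 and -0.0333 for I, III and IV).

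Single members near 0 changed sign with the scaling or filter. For R788 + anti-PDL1 against vehicle, Atp5h was 0.0091 with DESeq2 or RLE scaling, 0.0105 with no filter, 0.0302 with 10 counts in every library, 0.12 with library totals, 0.0201 in 6 libraries and 0.0608 with upper-quartile scaling, and library totals gave Sdha 0.0238 and Uqcrb 0.0102. For irradiated against vehicle, library totals gave Atp5a1 -0.0611 and Uqcrfs1 -0.0121, and Sdha was 0.003 with DESeq2, 0.0032 with RLE and 0.0314 with upper-quartile scaling. Against R788 + anti-PDL1, library totals gave Atp5g1 -0.07, Cox8a -0.0729, Sdha -0.12 and Sdhc -0.0194.

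Leaving out 1 library of the 2 groups compared at a time called no member in any comparison. For R788 + anti-PDL1 against vehicle the irradiated libraries stayed in each of these fits. The fit on only the 6 libraries compared, without the irradiated ones, called 3 members there. Ranges over the fits with 1 library left out that crossed 0, or left the spread, were as follows. For irradiated against vehicle, the lowest value being without the first irradiated tumor, the members' median ran from -0.26 to 0.82 and the complex medians from -0.37 to 0.83 (I), -0.11 to 0.46 (II), -0.27 to 0.45 (III), -0.19 to 1.07 (IV), -0.17 to 0.62 (V). The median against R788 + anti-PDL1 ran from 0.12 to 1.22. Members in irradiated against vehicle: Atp5a1 -0.17 to 0.21, Atp5b -0.14 to 0.32, Atp5g1 -0.70 to 0.14, Atp5j2 -0.055 to 1.56, Cox4i1 -0.093 to 1.29, Cox5a -0.076 to 1.01, Cox6a1 -0.18 to 1.14, Cox6b1 -0.15 to 1.30, Cox7a1 -0.14 to 1.57, Cox7a2 -0.037 to 1.25, Cox7b -0.19 to 0.82, Ndufa13 -0.15 to 1.65, Ndufs1 -0.24 to 0.36, Ndufs7 -0.43 to 1.15, Ndufv1 -0.54 to 0.53, Sdha -0.11 to 0.068, Sdhb -0.10 to 1.03, Uqcrc1 -0.084 to 0.38, Uqcrfs1 -0.24 to 0.39, Uqcrh -0.16 to 1.37. Members in irradiated against R788 + anti-PDL1: Atp5g1 -0.39 to 0.47, Cox7a1 -0.59 to 1.13, Cox8a -0.091 to 0.40, Ndufa9 -0.0703 to 0.63, Ndufs7 -0.10 to 1.50, Ndufv1 -0.033 to 1.06, Sdha -0.037 to 0.18, Uqcrc2 -0.50 to 0.0068. Members in R788 + anti-PDL1 against vehicle: Atp5h -0.18 to 0.21, Ndufs4 -0.15 to 0.37, Sdha -0.21 to 0.0037, Uqcrb -0.34 to 0.13.

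With the replicate block, 0 members were called in each comparison and the medians were -0.39, 0.35 and 0.74. Same-numbered libraries of different groups had correlations of their deviations between -0.046 and 0.233. Differently numbered libraries were not compared, so whether the replicate numbers pair the tumors was not tested. Depth and 3 tumors per group limit single members: the SE of the named members' log2 fold changes ran from 0.16 to 0.76.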
